A study of Mus musculus with 5 samples.

Results

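The clustered protocadherins are a family of cell-surface adhesion proteins whose genes stand side by side in 3 clusters, gamma, alpha and beta. They were examined in RNA from the right hemisphere of the brain of C57BL/6 mice, a common inbred strain; all were males of 5 months. The members were chosen by symbol, as every gene of the deposited count table whose annotated name is Pcdha, Pcdhb or Pcdhg with an optional letter and a number. This gave 58 of 47729 genes, of which 22 belonged to the gamma, 14 to the alpha and 22 to the beta cluster. The labels put all 5 libraries, called brains 1 to 5 here, in 1 group and name no treatment or mutation. They do not say whether each library came from a separate animal, so p-values and SDs measure how these samples differ, and that may be technical. No conditions were compared, and the comparisons below are between members within a brain and between brains.

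In the alpha and gamma clusters each member has a large variable exon of its own, which encodes the extracellular part and is spliced to constant exons that all members of the cluster share. The beta members are separate genes that lack such constant exons. A neuron usually transcribes a small set of the alternate promoters, picked largely at random with the help of CTCF and cohesin, and the proteins recognise their own kind on neighbouring membranes, which lets branches of the same neuron avoid each other. The C-type members at the end of the alpha and gamma clusters are controlled differently, are transcribed more broadly and have roles of their own in neuron survival, axon tiling and dendrite growth.

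The labelled tissue was checked against marker genes. Levels throughout are library-scaled counts (CPM) per kilobase of uncovered exon, that is, of exon bases that no other listed gene covers on either strand. Marker lists are given as plain sums of the levels of their genes. The 3 neuronal markers Snap25, Syt1 and Rbfox3 summed to between 590 and 632, the 3 astrocyte markers to between 368 and 390 and the 3 oligodendrocyte markers to between 654 and 816, the highest in brain 4. The 3 microglial markers summed to between 58.7 and 65.1. The 2 endothelial markers summed to between 53.0 and 60.2, while singly Cldn5 ran from 18.4 to 28.2, lowest in brain 5, and Slc2a1 from 27.9 to 39.6, highest in brain 5 and past the threshold of the spread test described below (edgeR adjusted p 0.0237). Choroid plexus RNA was present, with a summed level between 467 and 515 that was nearly all Ttr, while Omp and Cnga2, which define olfactory sensory neurons, stayed near 0 with means of 0.127 and 0.155. Library depth ran from 13184234 to 15570064 counts. In bulk tissue, fewer cells of a type and less RNA per cell cannot be told apart.

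All 58 members lie on chromosome 18 of GRCm38, on the plus strand. The alpha cluster ran from 36930184 to 37187661, the beta cluster from 37264938 to 37524479 and the gamma cluster from 37661793 to 37841873. Stretches at the end of the alpha cluster were annotated in 14 of 14 alpha members, at 37156155 to 37156213, 37159265 to 37159353 and 37184946 to 37187657. Their counterparts in the gamma cluster, at 37825021 to 37825079, 37833265 to 37833353 and 37839903 to 37841870, were annotated in 22 of 22 gamma members. These constant exons were 59, 89 and 2712 bases long in alpha and 59, 89 and 1968 bases long in gamma. They encode the shared cytoplasmic end of the proteins and, in the last exon, the untranslated end of the message.

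Of the exon bases of the gamma members, 50.3% (58620 of 116521) were covered by no other gene. In the alpha cluster, where the constant exons are longer, the share was 39.1% (30494 of 77939), and among the beta members it was 96.9% (89845 of 92682). The beta exceptions were Pcdhb12, with an antisense transcript over 1927 of its bases, and the neighbours Pcdhb21 and Pcdhb22, whose ends overlap. The length that the deposited RPKM values rest on was the full exon length, shared exons included.

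**Figure D1:**
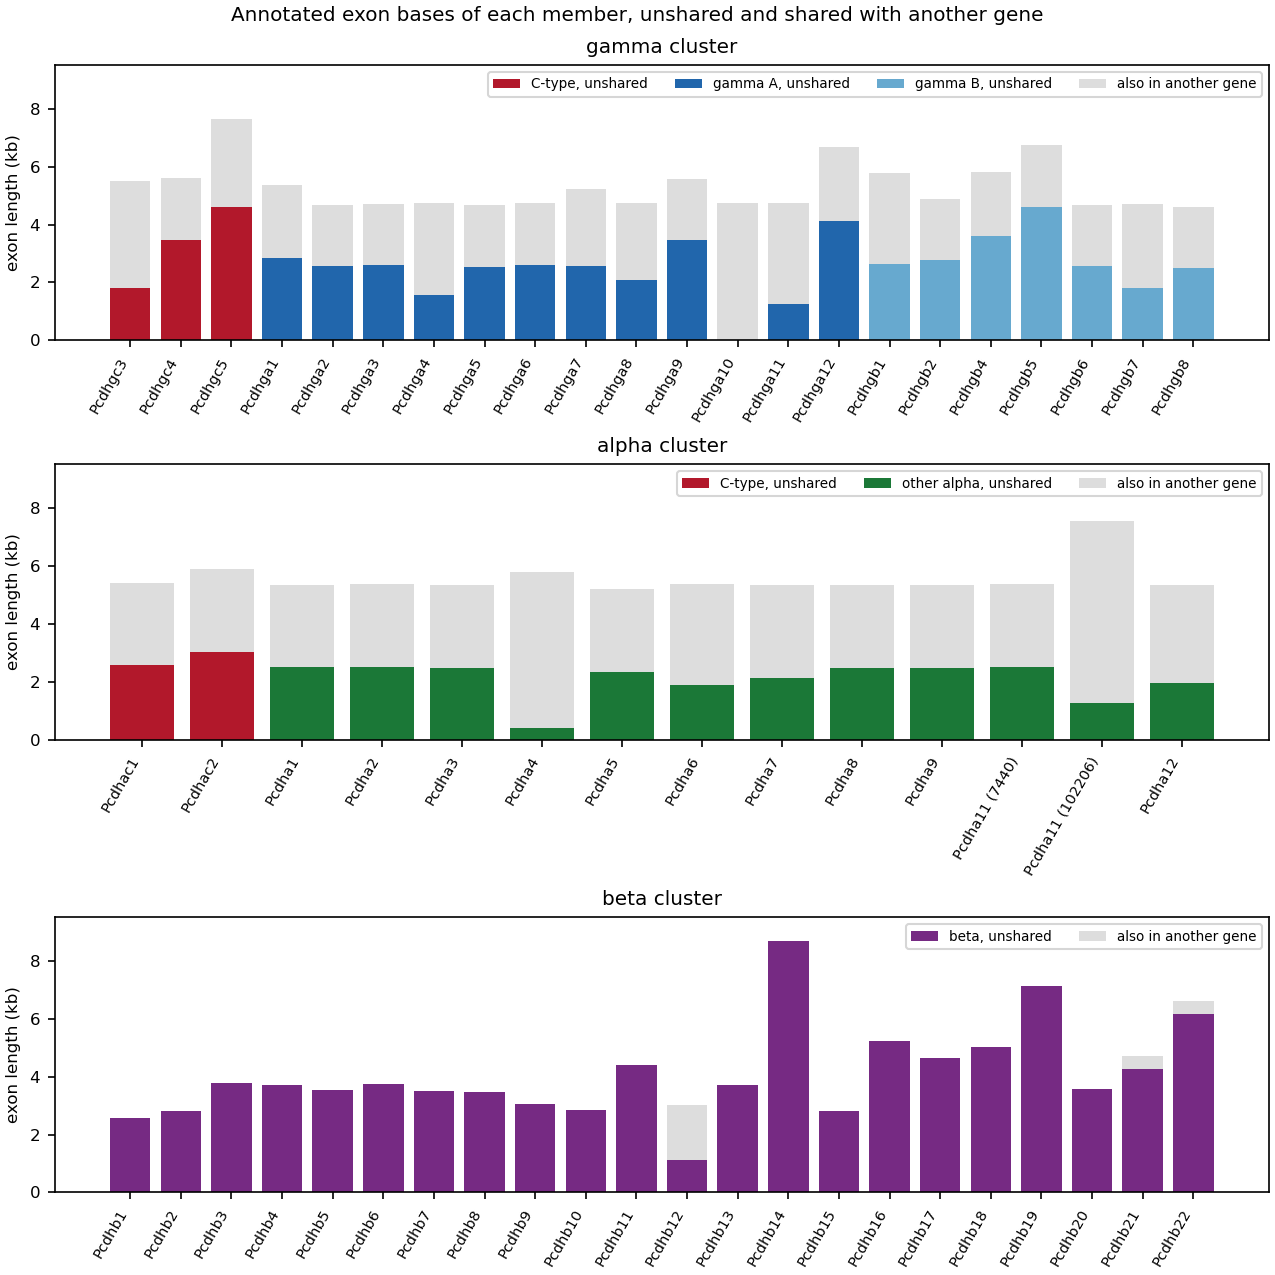
Exon length of each member in kilobases, with bases that no other listed gene covers in colour and bases also annotated in another gene in grey, for the gamma, alpha and beta clusters. Grey makes up most of the alpha bars and about as much as colour in gamma, while 96.9% of the beta bases are coloured.

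The counts themselves show how reads in shared exons were treated. Of 1034 genes whose exon bases all lay in another gene as well, 987 had 0 counts in every library. This held for genes of opposite strands too. Among 31 protein-coding genes whose free bases were covered only by genes of the other strand, 25 had 0 counts in every library, with a highest mean of 48.0 counts. Of 21352 protein-coding genes with at least 200 uncovered bases, 3669 had 0 counts in every library, and the median of the means was 103.2 counts. The constant exons of the alpha and gamma clusters thus added few or no counts to their members, and a member's count stands for its uncovered exon bases. In some members these reach beyond the principal transcripts. Pcdhgc5, for example, had 4606 uncovered bases, of which 2622 were in its principal transcripts. Reads of a member and of an antisense partner cannot be told apart in such counts.

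Of the 58 members, 4 had no usable exon of their own or were not protein-coding. Pcdhga10 had 0 uncovered bases, since the antisense transcript Gm26672 covers 2613 of them and the constant exons the rest, and it had 0 counts in every library. Pcdha4 had 3 uncovered bases in its principal transcript, was overlapped over 2410 bases by Gm42416, an annotated transcript that joins it to the gamma cluster, and had 0 counts in every library. Pcdhgb8, annotated as a polymorphic pseudogene, had 1, 2, 0, 1 and 0 counts in brains 1 to 5. The symbol Pcdha11 belonged to 2 entries. The entry ENSMUSG00000102206 had 54 uncovered bases in its principal transcript and exactly 1 count in each library, while ENSMUSG00000007440, which begins at 37005203, had a mean of 46.0 counts. That second entry lies where RefSeq, on the same build, lists Pcdha10, so its counts may be those of Pcdha10. For Pcdhga10 and Pcdha4 the 0 counts describe the annotation and say nothing of the transcript's level.

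The gamma cluster stood highest of the 3 clusters per kilobase of its own exons. Its summed level, here and for all groups of protocadherins the summed counts over the summed length, was 5.84, 5.95, 5.83, 5.52 and 5.92 in brains 1 to 5, a mean of 5.81 ± 0.171 (SD, n = 5). The alpha cluster reached 2.35, 2.56, 2.31, 2.30 and 2.58, with a mean of 2.42 ± 0.138. The beta cluster lay at 1.53, 1.61, 1.56, 1.56 and 1.60, with a mean of 1.57 ± 0.0348. No 2 clusters overlapped in any brain.

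Within a brain, gamma was 2.402-fold above alpha (log2 ratio 1.26 ± 0.059, SD of 5 brains, higher in 5 of 5) and 3.70-fold above beta (log2 ratio 1.89 ± 0.039, higher in 5 of 5). Alpha was 1.54-fold above beta (log2 ratio 0.62 ± 0.056, higher in 5 of 5). This last order rested on the C-type members: without them alpha was below beta, with a log2 ratio of -0.32 (0.801-fold), and per base of all annotated exons it was also below, with a log2 ratio of -0.69. The median alpha member, at 1.30, and the median beta member, at 1.37, lay close, with a log2 ratio of -0.11 ± 0.14 (SD of 5 brains). That alpha median takes in Pcdha4 and the Pcdha11 entry lacking an own exon, so no order is read from it. An exact sign-flip test of the log2 ratios, two-sided, with all 32 sign patterns, gave p = 0.0625 for each of the 7 ratios between groups of members reported here, before and after Benjamini-Hochberg adjustment over the 7, which is the smallest p that 5 libraries allow.

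In plain counts the order of alpha and beta was the other way round. The gamma members took 61.3 ± 0.640% of all clustered protocadherin counts (SD, n = 5), the alpha members 13.3 ± 0.444% and the beta members 25.4 ± 0.480%. Together the 58 members took 556 ± 15.5 CPM, with 341 ± 10.01 in gamma, 73.8 ± 4.21 in alpha and 141 ± 3.12 in beta. The beta members hold more uncovered exon bases than the alpha members, so the order depends on the scale.

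**Figure D2:**
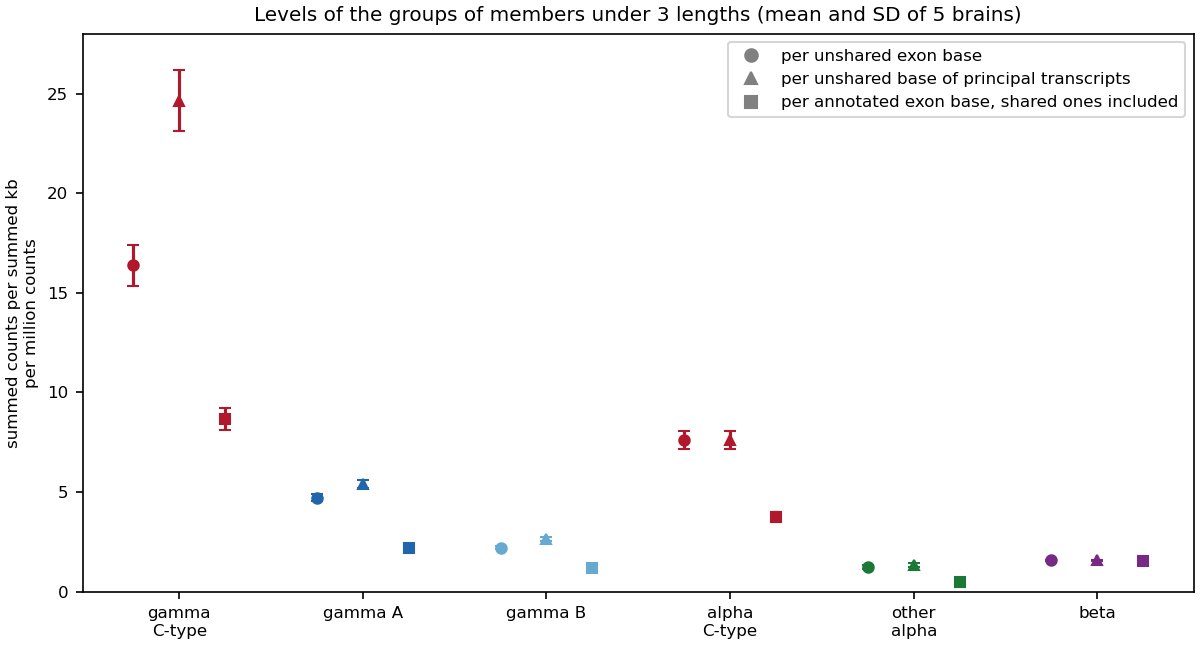
Summed CPM per summed kilobase for 6 groups of members, as the mean and SD of 5 brains, with 3 choices of length: uncovered exon bases (circles), uncovered bases of principal transcripts only (triangles) and all annotated exon bases (squares). The gamma C-type members are highest with each length, and other alpha lies under beta with each length.

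The 3 most abundant members of the family were of the C-type. Pcdhgc5, described at GABA-releasing synapses in rat, had levels of 25.4, 24.4, 25.2, 22.2 and 28.2 in brains 1 to 5, the highest of all members in every brain. Pcdhgc3, which promotes growth of cortical dendrites in mouse, followed with 14.9, 15.3, 13.8, 15.4 and 15.2. Pcdhac2, which serotonergic axons need to spread apart in mouse, had 12.8, 13.3, 12.05, 11.7 and 13.3. The order of these 3 was the same in 5 of 5 brains and their ranges did not overlap.

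Pcdhgc4, which keeps interneurons alive during mouse development, came next among the C-type members with 5.74, 6.09, 5.41, 5.23 and 5.54. Pcdhac1, the other alpha C-type member, was far lower, with 1.78, 1.44, 1.51, 1.48 and 2.02. Pcdhac2 was 7.72-fold above Pcdhac1. Pcdhgc5 was 1.68-fold above Pcdhgc3 and 4.47-fold above Pcdhgc4. The place of Pcdhgc3 depended on its length. The antisense transcript BC037039 covers 1559 of its bases, and of its 1821 uncovered bases 1055 are in the principal transcripts. Pcdhgc3 was 1.18-fold above Pcdhac2 per uncovered base and 2.04-fold above per uncovered base of the principal transcripts. Per base of all exons it was 0.760-fold, that is below Pcdhac2, and Pcdhgc5 was 3.07-fold above Pcdhgc3.

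Summed over their exons, the 3 gamma C-type members lay at 16.6, 16.3, 16.1, 15.0 and 17.8, against 3.65, 3.85, 3.73, 3.59 and 3.49 for the gamma A and gamma B members. The ratio was 4.46-fold (log2 2.16 ± 0.12, higher in 5 of 5 brains), and 2.402-fold (log2 1.26) without Pcdhgc5. Brain 5 had the highest C-type sum and the lowest sum of the others. The alpha C-type pair lay at 7.76, 7.85, 7.22, 7.04 and 8.13, against 1.14, 1.37, 1.21, 1.24 and 1.34 for the alternate alpha members. That ratio was 6.04-fold (log2 2.59 ± 0.10, higher in 5 of 5 brains) and was 1.30-fold without Pcdhac2. The 5 C-type members together took 36.8 ± 1.52% of the clustered protocadherin counts.

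**Figure D3:**
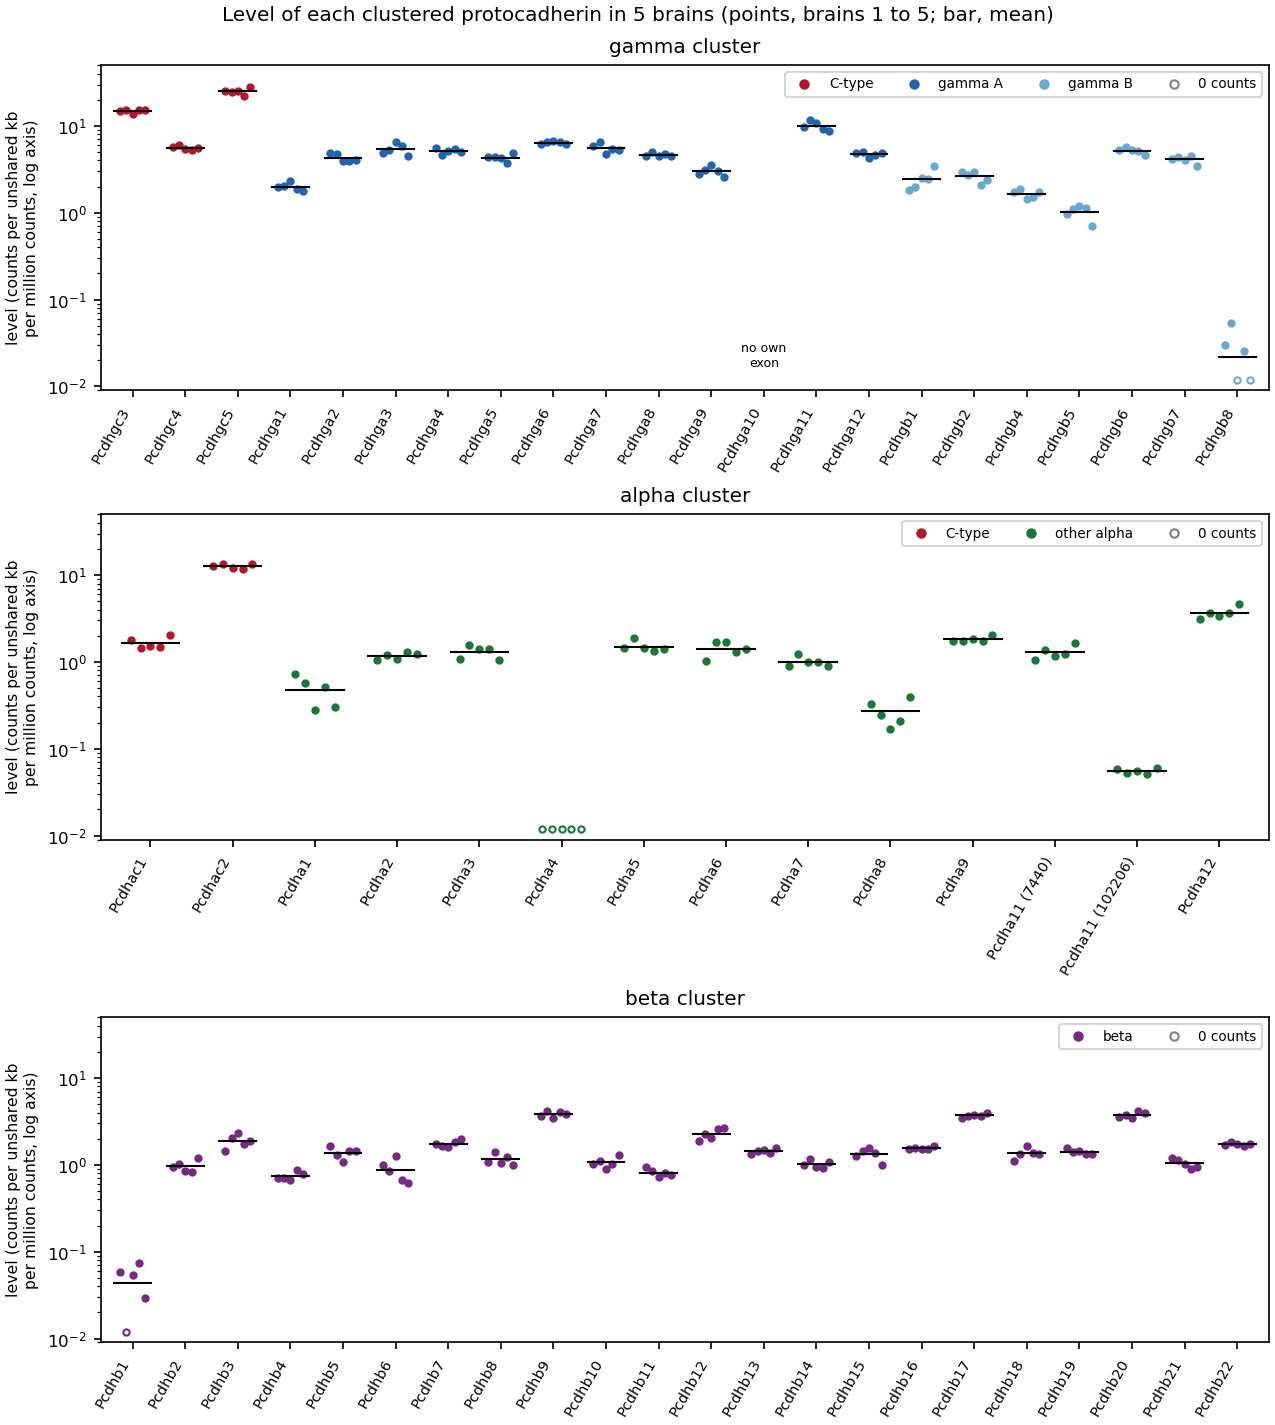
Level of each member (CPM per uncovered kilobase, log axis) in brains 1 to 5 as points from left to right, with the mean as a bar, for the gamma, alpha and beta clusters in turn. Open points mark 0 counts and are drawn at the foot of the axis. Pcdhgc5 is highest with a mean of 25.1, most alternate gamma members lie above most alpha and beta members, and Pcdha4, Pcdhb1, Pcdhgb8 and an entry of Pcdha11 are at or near 0.

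Among the gamma A members, which like the other alternate members diversify the surface of single neurons, levels ran from 1.99 in Pcdhga1 to 10.1 in Pcdhga11. Pcdhga11 stood at 9.76, 11.8, 10.8, 9.15 and 8.76 in brains 1 to 5, above every other alternate member of the family in each brain. It is also a member with few uncovered bases, 1256, since Gm26672 lies antisense over 1381 of its bases, and its rank turned with the length: per base of all exons it was at 2.65, below Pcdhga6 at 3.54 and Pcdhb9 at 3.87, and its mean of 180.2 counts was below the 278.4 of Pcdhga12. Pcdhga6 followed with 6.15, 6.45, 6.65, 6.56 and 6.21, and Pcdhga7 with 5.86, 6.48, 4.76, 5.49 and 5.24.

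From Pcdhga6 down to Pcdhga5, 8 members in a row had ranges that overlapped from each to the next. Pcdhga5 had 4.35, 4.38, 4.23, 3.73 and 4.86. Below it, Pcdhga9 with 2.82, 3.12, 3.59, 3.05 and 2.60 and Pcdhga1 with 1.97, 2.01, 2.31, 1.88 and 1.79 stood apart from their upper neighbours in every brain. In all, 7 of the 10 neighbouring pairs of gamma A members overlapped.

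The summed level averaged 4.72 ± 0.175 in the gamma A members and 2.21 ± 0.0810 in the gamma B members (SD, n = 5), a ratio of 2.14-fold (log2 1.10 ± 0.013, gamma A higher in 5 of 5 brains). This ratio had the smallest SD of the 7, but its size depended on the length and on the members taken in. It was 1.88-fold without Pcdhga10 and the pseudogene Pcdhgb8, the members here without an own exon or not protein-coding. Per base of all exons it was 1.81-fold, and with no length it was 2.95-fold. Pcdhgb6 had 5.24, 5.68, 5.30, 5.11 and 4.61, Pcdhgb7 4.18, 4.39, 4.09, 4.47 and 3.41, and Pcdhgb2 2.92, 2.75, 2.93, 2.07 and 2.42. At the lower end stood Pcdhgb4 with 1.73, 1.87, 1.43, 1.52 and 1.75 and Pcdhgb5 with 0.972, 1.11, 1.19, 1.13 and 0.707. Of the 6 neighbouring pairs, 2 overlapped, Pcdhgb2 with Pcdhgb1 and Pcdhgb1 with Pcdhgb4. The pseudogene Pcdhgb8 closed the list at 0.0219 ± 0.0227.

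The alternate alpha members were low with 1 exception. Pcdha12, the last of them before the C-type pair, had 3.15, 3.70, 3.41, 3.67 and 4.60, a mean of 3.71 ± 0.549 (SD, n = 5) that was 2.02-fold above the next member. That was Pcdha9, with 1.75, 1.76, 1.82, 1.76 and 2.02, followed by Pcdha5 with 1.47, 1.86, 1.44, 1.34 and 1.39. Pcdha9 and the 6 members below it, down to Pcdha7, overlapped from each to the next.

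Pcdha1 at 0.478 ± 0.185 and Pcdha8 at 0.270 ± 0.0931 were lower again. Pcdha8 rested on a mean of 9.4 counts, with levels of 0.332, 0.244, 0.171, 0.207 and 0.398. The alpha members also share the most sequence with each other and with other genes: a median of 12.5% of the 50-base words in their own exons occurred elsewhere in annotated transcripts, up to 25.5% in Pcdha7 and 18.8% in Pcdha8. The same median was 3.33% in beta, 1.08% in gamma and 0% in the C-type members. Within gamma it was 0.601% in the gamma A members and 9.18% in the gamma B members, where it reached 16.8%. How the alignment treated reads with several matching places is not stated. With the length reduced by those words, 18 of the 29 members named by rule came out higher, 5 of them by more than their SD between brains, and the alpha over beta log2 ratio was 0.75.

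The beta members made a continuous slope with a small group at its top. Pcdhb9 had 3.69, 4.20, 3.48, 4.08 and 3.90, Pcdhb20 3.59, 3.79, 3.46, 4.15 and 3.99, and Pcdhb17 3.48, 3.65, 3.75, 3.69 and 3.99. These 3 could not be told apart from each other, and all lay above Pcdhb12, the next member at 2.29 ± 0.345, in every brain. From there to Pcdhb4 the levels declined in small steps, and 18 of the 21 neighbouring pairs of beta members overlapped. Pcdhb11 stood at 0.947, 0.851, 0.717, 0.799 and 0.755 and Pcdhb4 at 0.703, 0.705, 0.663, 0.864 and 0.796.

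Pcdhb1, which stands at the upstream edge of the beta cluster apart from the others, was nearly silent in these brains. It had 2, 0, 2, 3 and 1 counts in brains 1 to 5, a level of 0.0432 ± 0.0290 (SD, n = 5). Its 2588 exon bases are all uncovered, so overlap with a listed gene does not touch this value. They hold no 50-base word of another gene's annotated transcripts. Repeats outside those transcripts, or with mismatches, were not looked for.

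Set among all genes, the clustered protocadherins were of middle and low abundance in these hemispheres. Of the 57 members with a level, 25 lay above 1.84, the median of 21352 protein-coding genes with at least 200 uncovered bases. The 57 include Pcdha4, the Pcdha11 entry lacking an own exon and the pseudogene Pcdhgb8. Pcdhgc5 lay above the 90th percentile of those genes, 22.3. Per base of all exons it was at 15.2, and the percentile was not recomputed on that length. A mean level of at least 1 was reached by 46 members and of at least 5 by 10. Counts were found in every library for 54 members, and 6 members had a mean of under 10 counts.

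The delta protocadherins, relatives that stand alone at other places in the genome and are each transcribed from their own promoter, were the nearest group for comparison. The 58 clustered members had a summed level of 3.10 ± 0.0869 and the 10 delta members one of 12.3 ± 0.371 (SD, n = 5). The ratio was 0.253-fold (log2 -1.98 ± 0.038, lower in 5 of 5 brains). These levels are averages over the exon length of each group, and not totals over its members. Pcdhgc5, at 25.1 ± 2.14, overlapped with Pcdh9 at 24.97 ± 1.34 and lay below Pcdh1 at 35.2 ± 1.36. Its place turned with the length: Pcdhgc5 was at 15.2 per base of all exons, on which Pcdh1 and Pcdh9 keep their levels. It was at 44.1 per uncovered base of principal transcripts, a length not taken for the delta genes. Pcdh7 had 17.9 ± 1.32. The lowest delta member, Pcdh18, had 1.60 ± 0.306, above the level of 27 of the 57 clustered members. These 27 include Pcdha4, whose lack of counts describes the annotation, the Pcdha11 entry lacking an own exon and the pseudogene Pcdhgb8. In summed counts, with no length, the ratio of clustered to delta members was 0.493-fold. In deposited RPKM, which rest on full exon lengths, added up over members it was 0.839-fold.

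Whether a member differed between the 5 brains more than genes of its abundance do was tested with edgeR's quasi-likelihood fit over all genes that passed the filter on low counts. Each gene's spread was set against the trend over abundance, with a one-sided test in each tail, Benjamini-Hochberg adjusted over 14770 genes, at a threshold of 0.05. In all genes, 45 passed above the trend, a background of 0.305%, and none below it, a background of 0%. Of the members, 52 entered the test and the other 6 (3 alpha, 1 beta and 2 gamma) were too low for it. None of the 52 passed in either tail, and DESeq2's dispersion outliers and limma on log2 RPKM also gave 0 members.

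At an unadjusted p under 0.05, 4 of the 52 lay above the trend, where the background was 5.43%, and 3 below it, where it was 5.00%. These shares are close to the background. Above the trend by edgeR's test were Pcdhgb1, Pcdhgc5, Pcdhb6 and Pcdhga3, with unadjusted p of 0.0166, 0.0290, 0.0370 and 0.0483 and adjusted p of 0.679, 0.821, 0.852 and 0.916 in that order. Below it were Pcdhb16, Pcdhb22 and Pcdhga8, with adjusted edgeR p of 0.953, 0.962 and 0.981. Pcdhb16, for example, had levels of 1.52, 1.57, 1.52, 1.52 and 1.64 in brains 1 to 5. Of the 10 delta protocadherins, 0 passed in either tail, and 1 (Pcdh18) had an unadjusted p under 0.05 above the trend.

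The 4 were named because their p was low, and leaving out a brain at the end of a member's range tends to raise it. The values that follow are therefore a description only. Pcdhgb1 had levels of 1.82, 1.97, 2.52, 2.43 and 3.44 in brains 1 to 5, and without brain 5 its unadjusted edgeR p was 0.240. For Pcdhgc5, lowest in brain 4 and highest in brain 5, the unadjusted p was 0.138 without brain 4 and 0.126 without brain 5. Pcdhb6, at 0.995, 0.841, 1.28, 0.667 and 0.626, and Pcdhga3, at 4.88, 5.27, 6.61, 5.90 and 4.55, were both highest in brain 3, and without it their unadjusted p was 0.248 and 0.255. Brain 4, where Pcdhgc5 was lowest, also had the highest summed level of the oligodendrocyte markers, 816 against 654 to 688 in the other brains, and the part of this in the Pcdhgc5 level was not tested.

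**Figure D4:**
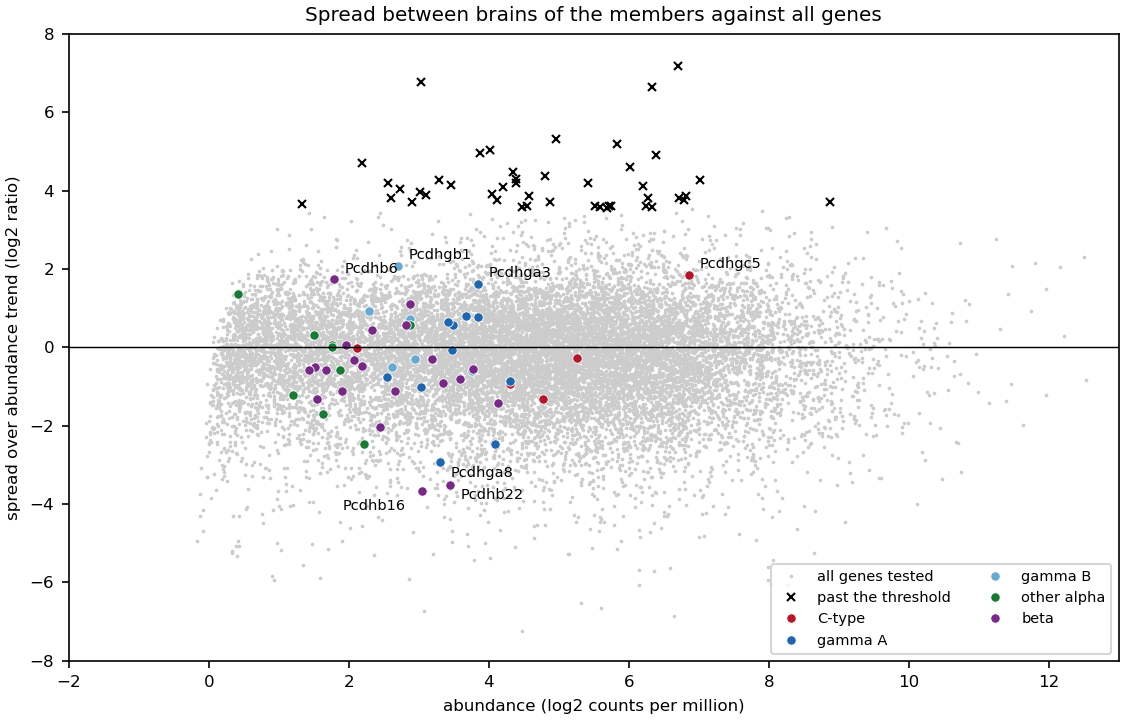
Spread between the 5 brains relative to the abundance trend (log2 ratio, vertical) against abundance (log2 CPM, horizontal) for 14770 genes in grey, the 45 genes past the threshold as crosses, and the 52 tested members in colour by group. No member is past the threshold, and 33 of the 52 lie below the trend line at 0, as do 8367 of the 14770 genes.

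Most members lay below the trend, as did most of all genes tested, and the 2 shares were not tested against each other. Their median log2 ratio to the trend was -0.49 over 52 members, where that over all 14770 genes was -0.19, with 33 members below and 19 above it, and 8367 genes below and 6403 above it. The beta members had a median of -0.58, the gamma members -0.18 and the alpha members -0.01. Measured against counting noise alone, the variance between brains was 0.881 times that noise in the median beta member, 1.30 times in alpha and 1.22 times in gamma, and 1.59 times in the median gene. In 23 of the 52 members, 13 of them beta, it was under 1, as it was in 4636 of the 14770 genes (31.4%). The highest value was that of Pcdhgc5, the member with the most counts (1639 on average), whose variance was 12.005 times counting noise. The median coefficient of variation was 11.3% over the 52 members and 7.02% over all genes tested. Unlike the ratio to the trend, these last 2 measures change with the number of counts and were not matched for it. The median gene tested had a mean of 329 counts, and the beta members tested had 36.2 to 246. The gaps between members and all genes in these 2 measures are therefore not like for like.

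Position along a cluster was compared with level as a description, over members that share a library and a locus. Spearman's rho of order along the chromosome with level was 0.24 over 12 alternate alpha members, 0.38 over 22 beta members, 0.34 over 11 gamma A members and -0.11 over 7 gamma B members. With levels per uncovered base of principal transcripts it was 0.49 over the alpha and 0.56 over the gamma A members. Leaving out members without an own exon or not protein-coding changed it to 0.42 over 10 alpha and 0.43 over 6 gamma B members. In alpha the highest alternate member, Pcdha12, was the last of them along the cluster, while in beta the highest, Pcdhb9, was the ninth of 22. Pcdhb1 and Pcdhga1, which open their clusters, were the lowest of beta and of gamma A. Pcdha1, which opens the alpha cluster, was lower than all but Pcdha8 among the 10 alternate alpha members with an exon of their own.

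Genes that act on the clusters were followed as well. Of 15 genes for promoter choice and chromatin, 14 entered the edgeR spread test, 0 passed in either tail and 0 had an unadjusted p under 0.05. Rad21 and Smc1a, subunits of the cohesin ring that brings promoters to their enhancers, had levels of 34.0 ± 1.26 and 21.4 ± 0.542 (SD, n = 5). Ctcf, which binds the promoters and halts cohesin there, had 17.9 ± 0.575. Dnmt3b, which methylates the alternate promoters in the early mouse embryo, was at 0.185 ± 0.046, too low to enter the test.

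Levels of the cytoplasmic partners ran from 3.06 to 182, with a median of 31.9. All 16 genes of this list entered the edgeR spread test, 0 passed in either tail and 2 had an unadjusted p under 0.05 above the trend, where the background was 5.43%. Cyfip2, at 182 ± 5.93, and Nckap1, at 165 ± 2.76, are subunits of the WAVE complex, which builds branched actin and binds the alpha proteins. Ctnnb1, which encodes beta-catenin, had 122 ± 5.94. Ret, which phosphorylates clustered protocadherins, came nearest to the threshold, with 2.87, 3.90, 3.21, 4.13 and 2.76 in brains 1 to 5 and an adjusted edgeR p of 0.333. Ptk2b, a focal adhesion kinase held in check by the shared cytoplasmic end, had 71.7 ± 5.05 and an adjusted edgeR p of 0.837.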

How the data were processed

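RNA was extracted from 5 samples in 1 group and sequenced as mRNA libraries, per the labels. The deposited whole-number counts per Ensembl gene were made by the authors with CASAVA 1.7, STAR 2.4.1d and featureCounts 1.4.6-p4 on GRCm38, per the submitters' processing notes. Which annotation release and strand setting were used, and how reads with several genes or places were handled, is not given in the sources used here. RPKM values, also deposited by the authors, rest on full exon lengths and on library totals taken in turn down the table: the implied length had a median coefficient of variation of 0.00195% over libraries on that rule and 10.7% if each library is given its own total. They served as an alternative only.

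Symbols and exons came from a GENCODE annotation of GRCm38 (release M21, 47224 of 47729 IDs matched). Levels are CPM from each library's own total, divided by uncovered exon kilobases, and the level of a group of protocadherins is summed counts over summed length, while marker lists are plain sums of gene levels. Ratios were taken within each library and tested with an exact sign-flip test. Spread was tested with edgeR 4.0.16 under R 4.3.3 (TMM scaling, genes kept by filterByExpr, robust glmQLFit of an intercept), with DESeq2 1.42.0 and limma 3.58.1 (pseudocount 0.1 on RPKM) as alternatives, after a check on simulated counts. Named with all values, as levels or counts, were the C-type members and the 3 highest and 3 lowest members of alpha, beta, gamma A and gamma B. The 3 most abundant genes of each related list were named with mean and SD. Genes named beyond that were chosen after their values were seen. Members and lists were chosen with earlier results of these data known. PCR reads lacking molecular identifiers are not separate molecules, so depth covers counting error only.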

Additional observations from a re-analysis of the deposited data

Results flagged for a closer look

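Among 48 groups of 5 values (members, sums and ratios), 3 had a brain set apart from the other 4 by more than Dixon's critical value of 0.71 of the range; chance gives about 1 in 20. Pcdha5 was 1.86 in brain 2, with 1.34 to 1.47 in the others. Pcdha9 was 2.02 in brain 5, with 1.75 to 1.82 in the others. The summed level of the gamma cluster was 5.52 in brain 4, with 5.83 to 5.95 in the others. Brain 4 also had the highest summed oligodendrocyte markers, 816 with 654 to 688 in the others, and the part of this in the gamma level was not tested. Neither gene passed the edgeR spread test. The variance between brains was 0.237 times counting noise in Pcdha9 and 0.9998 times in Pcdha5, so neither flag stands out from counting noise. Without brain 4 both ratios with gamma on top kept their direction.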

How the results depend on the processing

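The 7 ratios kept their direction without any 1 library. The log2 ranges were 1.25 to 1.28 for gamma over alpha, 1.88 to 1.90 for gamma over beta, 0.61 to 0.64 for alpha over beta, 2.55 to 2.62 for C-type over other alpha, 2.11 to 2.18 for C-type over other gamma, 1.09 to 1.10 for gamma A over gamma B and -1.99 to -1.97 for clustered over delta. The levels per uncovered base of principal transcripts, less repeated words, and without C-type members, Pcdhac2, Pcdhgc5 or members lacking an own exon were alternatives chosen after seeing the data. Alpha over beta turned in direction per base of all annotated exons (log2 -0.69), with no length (-0.94), in deposited RPKM (-1.35) and without C-type members (-0.32). By the median member it was -0.11 ± 0.14 (SD of 5 brains), smaller than its SD, so no order is read from it. C-type over other gamma turned with no length (-0.14) and in deposited RPKM (-0.57). Both settings sum over members, here 3 against 19, so the number of members enters these 2 ratios. Gamma A over gamma B kept its direction but changed in size. Its log2 ratio was 0.86 per base of all exons, 0.91 without members lacking an own exon or not protein-coding, and 0.96 less repeated words. It was 1.03 per uncovered base of principal transcripts, 1.16 by the median member, 1.56 with no length and 1.58 in deposited RPKM. Gamma over beta kept its direction but was 1.92-fold per base of all exons, 2.41-fold with no length, 1.74-fold in deposited RPKM and 2.33-fold without C-type members. Gamma over alpha was 4.62-fold with no length, 3.65-fold by the median member and 4.45-fold in deposited RPKM, C-type over other alpha was 1.35-fold with no length and 1.24-fold in deposited RPKM, and clustered over delta was 0.163-fold per base of all exons and 0.839-fold in deposited RPKM. The count of members off the spread trend was 0 by edgeR, DESeq2 and limma and without any 1 library, and 1 with no filter beyond 1 count (Pcdha11, ENSMUSG00000102206, with 1 count in every library and an adjusted p of 0.0357 below the trend). No paired analysis was possible because all samples are in 1 group. Per base of all exons 22 of the 29 named levels were lower. Levels under 10 counts carry wide counting error, and those of overlapped members depend on the annotation.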

Other observations

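Other genes of the locus covered a wide range of levels. Taf7, which encodes a subunit of the general transcription factor TFIID and lies on the minus strand between the beta and gamma clusters, had a level of 2.38 ± 0.264 (SD, n = 5), and Slc25a2, a mitochondrial ornithine carrier beside it, had 0.254 ± 0.0915. Upstream of the alpha cluster, Zmat2 had 74.2 ± 1.62, Hars, the histidyl-tRNA synthetase, 47.9 ± 2.10 and Ik, a splicing factor, 33.6 ± 1.34. Hars2, with 7.04 ± 0.326, Wdr55, with 5.87 ± 0.560, and Dnd1, with 0.623 ± 0.0920, lay within the range of the clustered members. Of the 11 flanking and inner genes, 10 entered the edgeR spread test, 0 passed in either tail and 0 had an unadjusted p under 0.05. Of the antisense and noncoding transcripts inside the locus, 3222401L13Rik, which ends just before Pcdhga1, had the most counts with a mean of 25.2. BC037039, antisense to Pcdhgc3, had a mean of 5.4 counts in its 646 uncovered bases.

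The markers of serotonergic neurons, in which Pcdhac2 has its known role in axon spacing, were uneven between these brains. Tph2, the enzyme that starts serotonin synthesis, had levels of 0.389, 3.27, 1.74, 1.47 and 0.606 in brains 1 to 5, an 8.39-fold range, and passed the spread test (edgeR, adjusted p = 0.00179). Slc6a4 and Fev did not pass the filter on low counts for that test. Pcdhac2 had a range of 1.13-fold over the same brains, and the difference in spread between it and Tph2 was not tested.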
